A study of Mus musculus with 6 samples.

Results

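Eph receptors and ephrins were examined in an ATAC-seq experiment on small intestinal crypts, an assay that inserts adaptors into open chromatin with a transposase, so that the reads over a site measure its accessibility. The genes chosen were 7 receptors (Ephb2, Ephb3, Ephb4, Ephb6, Epha1, Epha2 and Epha4) and 3 ephrins (Efnb2, Efna1 and Efna4). Peaks were assigned by the gene name they carry in the deposited table, matched exactly, and such names come from genes within 5 kb. Of 123510 peaks, 43 met this rule, and they belonged to 9 of the 10 genes, since no peak carried the name Efna1. The experiment had 3 WT and 3 Smarcad1-KO libraries, called WT1 to WT3 and KO1 to KO3 after their replicate numbers. All came from whole crypt nuclei of male mice on a C57BL/6 background, and no age was given. In KO mice, Cre driven by the Villin promoter removed the floxed Smarcad1 exons 12 to 14 in the intestinal epithelium (Smarcad1 fl/fl with Vil-Cre). Smarcad1 is a chromatin remodeler, and the comparison asked whether its loss in the epithelium changes accessibility. Whether WT mice carried Cre or floxed alleles was not stated. The line came from a single targeted ES cell clone, and non-epithelial cells that remain in a crypt preparation keep Smarcad1.

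Eph receptors are receptor tyrosine kinases that bind ephrins on neighbouring cells, and both partners signal into their own cell after contact. In the intestinal epithelium, Wnt signalling maintains EphB receptors at the crypt base, while ephrin-B ligands rise towards the villus, and the opposing gradients keep stem, Paneth and differentiated cells in their positions. Ephrin-A proteins are held in the membrane by a lipid anchor, whereas ephrin-B proteins cross it.

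The sequence next to the gene start differed between these genes, and only some of these starts lay in a peak. For the 2 crypt-base receptors, the ephrin with the most accessible peak, and the ephrin without a peak, the 250 bases before the outermost annotated start in GENCODE or RefSeq (GRCm38) are shown on the strand of the gene, with each CG dinucleotide in capitals. The windows lay at chr4:136836327-136836576 on the minus strand (Ephb2), chr16:21204370-21204619 on the plus strand (Ephb3), chr8:8661243-8661492 on the minus strand (Efnb2) and chr3:89281143-89281392 on the minus strand (Efna1).
Ephb2: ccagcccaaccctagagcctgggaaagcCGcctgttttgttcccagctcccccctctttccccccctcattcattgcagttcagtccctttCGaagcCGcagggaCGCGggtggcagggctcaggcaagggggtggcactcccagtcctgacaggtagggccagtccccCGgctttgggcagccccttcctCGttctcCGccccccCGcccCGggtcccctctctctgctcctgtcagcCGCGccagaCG
Ephb3: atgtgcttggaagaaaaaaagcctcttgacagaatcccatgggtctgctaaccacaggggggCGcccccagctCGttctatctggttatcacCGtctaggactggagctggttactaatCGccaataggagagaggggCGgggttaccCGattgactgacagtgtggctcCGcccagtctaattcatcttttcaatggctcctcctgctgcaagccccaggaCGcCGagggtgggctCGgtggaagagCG
Efnb2: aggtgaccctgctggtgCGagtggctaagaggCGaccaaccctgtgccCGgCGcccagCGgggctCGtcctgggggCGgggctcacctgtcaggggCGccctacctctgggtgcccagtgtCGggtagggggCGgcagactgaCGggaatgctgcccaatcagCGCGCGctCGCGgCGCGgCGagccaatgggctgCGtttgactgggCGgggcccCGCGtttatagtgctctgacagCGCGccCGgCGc
Efna1: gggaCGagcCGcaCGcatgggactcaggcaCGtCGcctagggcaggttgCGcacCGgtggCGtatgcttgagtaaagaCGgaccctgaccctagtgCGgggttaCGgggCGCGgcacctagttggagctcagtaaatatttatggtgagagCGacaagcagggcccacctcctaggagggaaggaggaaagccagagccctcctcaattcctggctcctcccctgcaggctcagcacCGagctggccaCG
Efnb2 had the highest GC content of all 10 windows, 72%, with 27 CG dinucleotides. The Ephb2 window had 67.6% GC and 13 CG dinucleotides, the Efna1 window 62.8% and 16, and the Ephb3 window 56.4% and 11. The medians over 21929 protein coding genes were 51.6% and 6. Ephb2 and Efna1, which had no peak over their start, had windows richer in GC than that of Ephb3, whose start lay in a peak. The start of Efnb2, with the richest window, also lay in a peak. These are few genes, and a relation between base composition and peaks was not tested.

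The tissue was checked against marker genes before the members were described. Of 11 epithelial genes, 8 had a named peak (Epcam, Vil1 and Ascl2 had none), and the log2 of their summed strongest peaks was 11.9 to 12.4 in WT and 11.8 to 12.6 in KO. Blood genes had a peak in 3 of 6 cases (none for Cd3e, Cd4 and Cd79a), with a sum of 8.10 to 8.26 in WT and 7.69 to 8.19 in KO. All 6 stromal genes (9.32 to 9.67 in WT, 9.17 to 9.80 in KO) and all 4 endothelial genes (8.74 to 8.89 in WT, 8.68 to 9.24 in KO) had peaks, and which cells these reads came from was not tested. In bulk nuclei, fewer cells of a type and less open DNA per cell cannot be told apart. The libraries held 4339306 (KO3) to 16301164 (WT3) reads in peaks. The deposited values are log2 reads scaled to the largest library, on which 1 read is worth 1.00 in WT3 and 3.99 in KO3, and they are called accessibility here. Member peaks held 1 to 1395 reads per library. Smarcad1 had 4 named peaks with log2 fold changes (KO minus WT) of -0.14 to -0.01, and 0 lay over the deleted exons, so the deletion could not be checked here.

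The longest genes had the most peaks. Ephb2, which spans 188 kb at chr4:136647539-136835988 on the minus strand, had 12 peaks, and Epha4, which spans 148 kb at chr1:77367185-77515088 on the minus strand, had 9. Ephb3 (chr16:21204755-21223305, plus strand) had 2 peaks. Per 10 kb of gene and 5 kb flanks this was 0.60 for Ephb2, 0.57 for Epha4 and 0.70 for Ephb3. Among the shorter receptors, Ephb4 (chr5:137350109-137378669, plus strand) had 3, Ephb6 (chr6:41605482-41620509, plus strand) had 1 and Epha2 (chr4:141301240-141329384, plus strand) had 5. Epha1 (chr6:42358487-42373268, minus strand) was overlapped by 3 peaks, of which 2 carried its name. Of the ephrins, Efnb2 (chr8:8617434-8661242, minus strand) had 6 peaks and Efna4 (chr3:89333390-89338028, minus strand) had 3, or 1.12 and 2.05 per 10 kb. The crypt-base receptors Ephb2 and Ephb3 thus had 14 peaks and the ephrins 9.

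Of the 43 peaks, 8 lay over the start of the gene, and 36 (83.7%) were above the median WT accessibility of all peaks, 5.79. Among the 10 members, all but Ephb2 and Efna1 had their start in a peak. Over all protein coding genes, 11807 of 21938 starts (53.8%) lay in a peak.

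**Figure D1:**
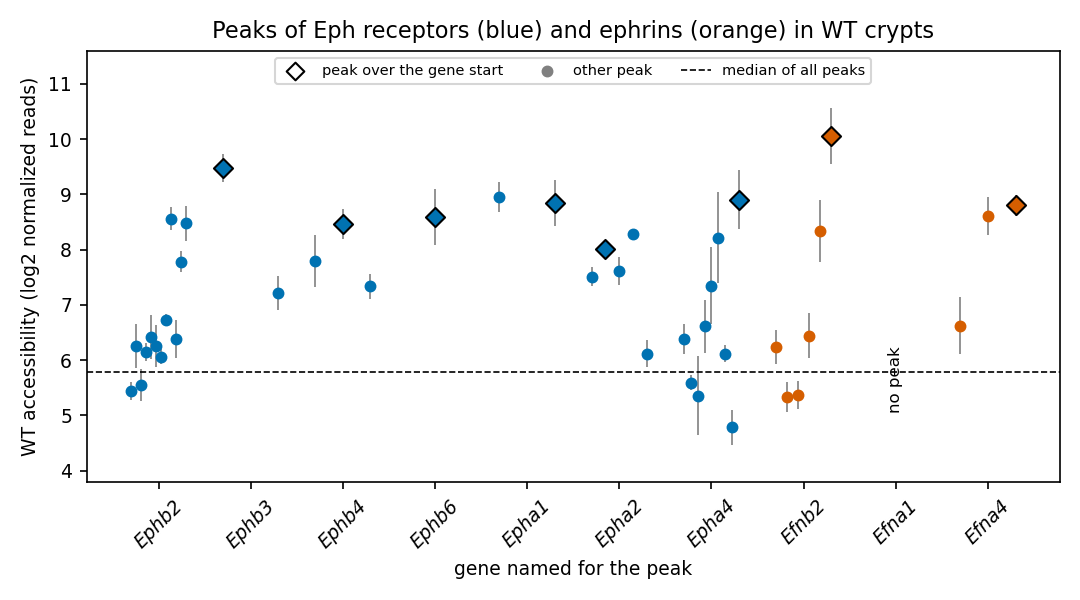
WT accessibility (log2 normalized reads) of each of the 43 peaks, grouped by gene on the x axis, with receptors in blue and ephrins in orange. Points are means and bars are SD over 3 WT libraries, diamonds mark peaks over a gene start and the dashed line is the median of all peaks (5.79). The Efnb2 and Ephb3 start peaks sit highest, at 10.05 and 9.48, Ephb2 has no diamond, and Efna1 has no peak.

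Ephb2 encodes the receptor that is graded from the crypt base upwards and guides cell position along the crypt. Its nearest peak to the start, chr4:136840801-136843500, lay 4813 bp upstream of it. Accessibility there was 8.24, 8.36 and 8.84 in WT1 to WT3 and 8.74, 8.19 and 8.95 in KO1 to KO3, with a log2 fold change of 0.14 (SE 0.33). The groups overlapped, with KO2 below every WT library. The most accessible Ephb2 peak was chr4:136801201-136803450, in an intron about 34 kb into the gene, with 8.46, 8.42 and 8.81 in WT and 8.72, 8.42 and 9.09 in KO. There too the fold change of 0.18 (SE 0.32) was smaller than its error, and KO2 was as low as the lowest WT library. The other Ephb2 peaks had WT means of 5.44 to 7.78, and all 11 peaks inside the gene were intronic.

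Ephb3 encodes the receptor needed for Paneth cells to settle at the crypt base. Its start lay in chr16:21202201-21205500, the second most accessible of the 43 peaks and above 98.8% of all peaks. Accessibility was 9.44, 9.25 and 9.74 in WT and 9.50, 8.99 and 9.75 in KO. The fold change was -0.06 (SE 0.35), and the 2 groups interleaved. The other peak, over a coding exon at chr16:21214501-21215700, had a WT mean of 7.22 ± 0.31 (SD, n = 3), a KO mean of 7.41 ± 0.28 and a fold change of 0.19 (SE 0.29).

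The remaining B receptors had accessible starts. Ephb4, a receptor for ephrin-B2 best known from vessel formation, had a start peak at chr5:137348551-137350800 with 8.54, 8.16 and 8.68 in WT and 8.68, 8.16 and 9.01 in KO, a fold change of 0.16 (SE 0.33). The Ephb4 peak at chr5:137375401-137377500 had a fold change of 0.32 (SE 0.29) and lay inside the annotated gene but beyond its coding transcripts. Ephb6, whose kinase domain is inactive, had a single peak over its start, chr6:41604151-41608050, with 8.96, 8.02 and 8.79 in WT and 8.54, 8.07 and 8.83 in KO. Its fold change was -0.11 (SE 0.35), and the lowest value of each group came from a library with the number 2.

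Among the A receptors, Epha1, the founding member of the family, had 2 adjoining peaks of similar height. The start peak chr6:42371701-42374250 had a WT mean of 8.85 ± 0.42 and a KO mean of 8.73 ± 0.53. The intronic peak chr6:42369601-42371700 was the more accessible, with 8.72, 8.90 and 9.24 in WT and 8.83, 8.64 and 9.15 in KO, and it also covers the start of the neighbour 2010310C07Rik. Neither fold change exceeded its error, at -0.12 (SE 0.36) and -0.08 (SE 0.32). Epha2, an epithelial receptor for ephrin-A1, had its strongest peak in an intron, chr4:141311551-141313500, at 8.21, 8.35 and 8.32 in WT and 8.26, 8.12 and 8.55 in KO (fold change 0.02, SE 0.30). Its start peak, chr4:141300901-141302850, was at 8.01 ± 0.08 in WT and 8.09 ± 0.11 in KO. Epha2 peaks varied little between WT libraries, with an SD of 0.07 to 0.26.

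Epha4, a receptor that binds ephrins of both classes, varied most between libraries. Its start peak chr1:77514001-77517150, which also covers the start of Gm28386, had 9.03, 8.32 and 9.36 in WT and 9.01, 8.15 and 9.54 in KO, with a fold change of -0.01 (SE 0.40). The intronic peak chr1:77468251-77469750 had 8.38, 7.32 and 8.95 in WT and 8.53, 7.30 and 9.33 in KO. In both, WT2 and KO2 were lowest and WT3 and KO3 highest, and this spread exceeded the difference between the groups. The weakest member, chr1:77485201-77485500, had 4.43, 4.88 and 5.04 in WT and 4.12, 5.16 and 2.00 in KO, and the KO3 value was a single read. It had the lowest fold change of the 43 peaks, -1.02 (SE 0.66), which was -0.14 without KO3.

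Efnb2 encodes ephrin-B2, a transmembrane ligand of EphB receptors. Its start peak chr8:8658751-8662350 was the most accessible member, above 99.7% of all peaks, and it also covers the start of 4921522P10Rik. Accessibility was 10.23, 9.48 and 10.45 in WT and 10.05, 9.40 and 10.70 in KO, with equal means of 10.05 in both groups (SE of the difference 0.42). The other Efnb2 peaks had WT means of 5.33 to 8.34 and fold changes of -0.50 (SE 0.32) to 0.35 (SE 0.34). Efna4, which encodes a lipid-anchored ligand of EphA receptors, had a start peak at chr3:89336551-89339850 with 8.78, 8.63 and 8.99 in WT and 8.94, 8.57 and 8.99 in KO. Its fold change was 0.03 (SE 0.31), and the peak also covers the start of 4731419I09Rik and overlaps Adam15. Efna1, the lipid-anchored main ligand of EphA2, at chr3:89271733-89281142 on the minus strand, was not overlapped by a peak. The nearest, chr3:89288251-89289150, lay 7109 bp from its start, carried no gene name and had a WT mean of 6.74.

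Per kb of peak, the ephrin peaks were slightly more accessible than those of the crypt-base receptors in WT. The mean over peaks of log2 accessibility per kb in WT was 6.76 for Ephb2 and Ephb3, 6.94 for the other receptors and 7.05 for the ephrins, against a median of 6.43 for all peaks. The 12 Ephb2 peaks alone had a mean of 6.66. The Ephb3 peaks were at 7.76 (start) and 6.95 (coding exon), so Ephb3 by itself did not show the difference. The difference of Ephb2 and Ephb3 minus ephrins was -0.44, -0.16 and -0.27 in WT1 to WT3 (mean -0.29 ± 0.14, SD, n = 3). In KO1 to KO3 it was -0.12, -0.07 and -0.04 (mean -0.08 ± 0.04). The sign was the same in all 6 libraries, and the 3 KO values lay closer to 0 than the WT values. These differences are a description without a test, since the genes were chosen with results known. A gene start lay under 1 of 14 peaks of Ephb2 and Ephb3 and under 2 of 9 ephrin peaks. The part of this in the difference was not tested. With only the peak of most reads of each gene, the difference of the medians in WT was -0.07. Ranked in WT by the peak with the highest accessibility per kb, the genes came in the order Efnb2 (8.21), Epha1 (7.88), Ephb3 (7.76), Ephb4 (7.72), Epha4 (7.63), Ephb2 (7.39), Epha2 (7.35), Efna4 (7.18) and Ephb6 (6.63). Neighbours in this order differed by less than the larger of their SDs over WT libraries (0.21 to 0.83), except that Efna4 was above Ephb6 by more than either SD (0.35 and 0.50).

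No member peak passed the test of KO against WT. In limma's test over all 123510 peaks, 0 of the 43 peaks were called at an adjusted p below 0.05, and the share called over all peaks was 0.0%, with a smallest adjusted p of 0.144. The paper, using edgeR, did report sites with significantly changed accessibility, mostly gains, so the 0.0% holds for this limma fit only. All member peaks had a limma adjusted p of 1.00. At an unadjusted p below 0.05, 2 of the 43 (4.65%) were counted, against 2.28% of all peaks. Limma voom on reads recovered from the values also called 0 and counted 2. This count was 0 without WT1 (0.944% of all peaks) and without KO1 (2.14% of all peaks). It was 1, higher in KO, without KO3 (3.15% of all peaks), and 1, lower in KO and so neither of the 2, without WT2 (4.56% of all peaks). In 1 of 43 peaks (2.33%) all KO values lay on 1 side of all WT values, against 6.8% of all peaks, and in that peak KO was the higher, as in 2.7% of all peaks. The standard errors of the 43 fold changes were 0.25 to 0.66 with a median of 0.31, the same median as over all peaks.

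**Figure D2:**
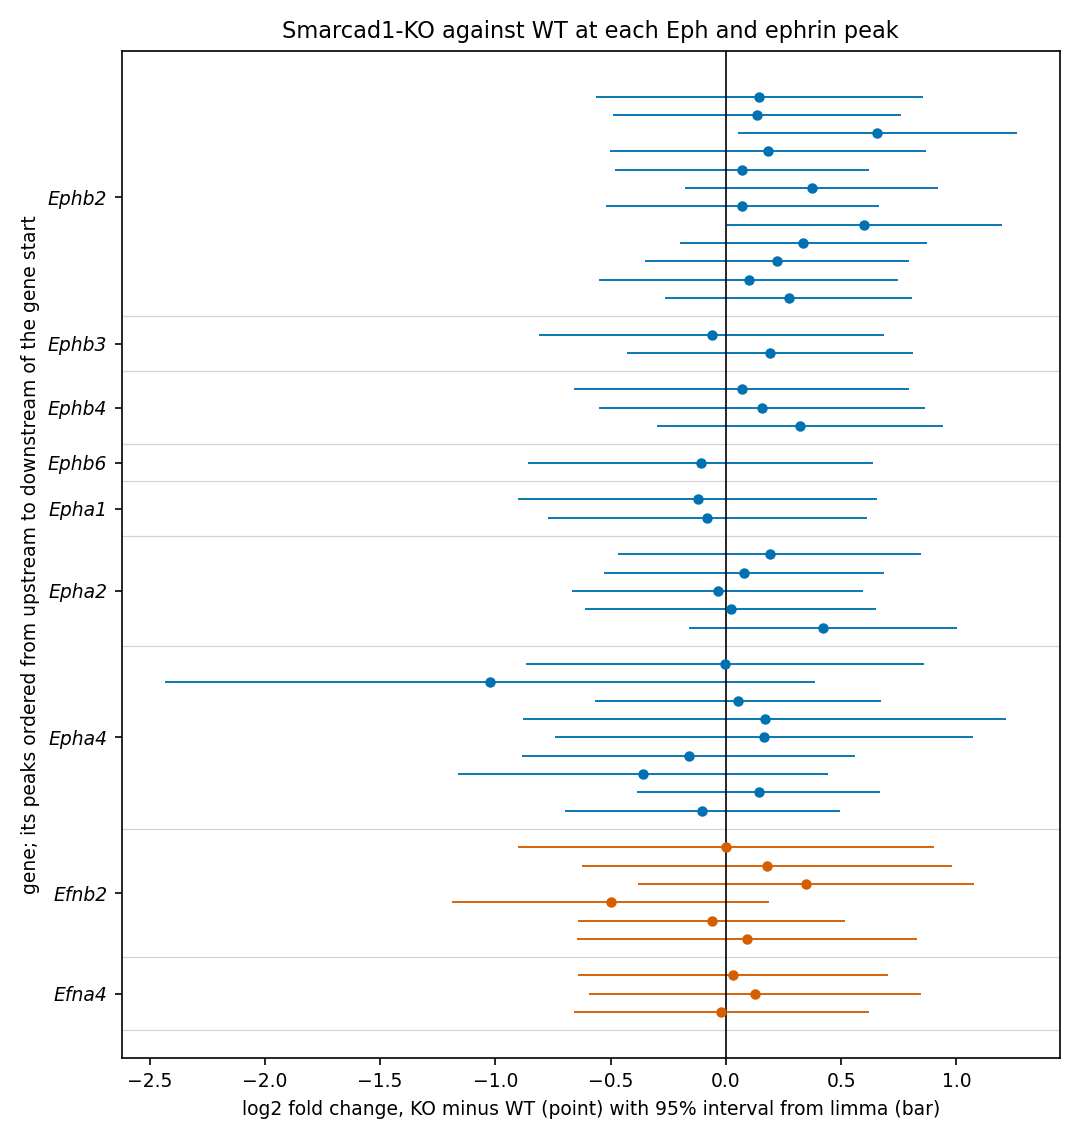
Log2 fold change (KO minus WT, x axis) of each of the 43 peaks with its 95% interval from limma, grouped by gene and ordered from upstream to downstream of the gene start, with receptors in blue and ephrins in orange. All but 2 intervals, both at Ephb2, include 0, and the widest belongs to the Epha4 peak with 1 read in KO3.

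Both peaks counted at an unadjusted p below 0.05 were introns of Ephb2, and both were higher in KO. At chr4:136732801-136733850, about 103 kb into the gene, accessibility was 6.37, 6.05 and 6.83 in WT and 6.98, 7.16 and 6.90 in KO. Every KO library was above every WT library, and KO3 was only just above WT3. The fold change was 0.60 (SE 0.28, limma unadjusted p = 0.049 and adjusted p = 1.00). At chr4:136815301-136816050, about 20 kb into the gene, accessibility was 6.10, 6.27 and 6.77 in WT and 7.10, 6.73 and 7.28 in KO. WT3 was above KO2 here, so the groups overlapped. The fold change of 0.66, the highest of the 43 peaks, had an SE of 0.28 (limma unadjusted p = 0.036 and adjusted p = 1.00). These peaks held 30 to 114 and 35 to 109 reads per library.

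All 12 Ephb2 peaks had a positive fold change, with a median of 0.20, while 46.9% of all peaks were above 0. They share libraries and a gene and are not independent measurements. The count was 10 without WT2 or without KO3 and 11 without WT1, KO1 or KO2. Their median was 0.10 without WT1, 0.11 without KO3 and 0.36 without KO2. Over the 43 peaks, 29 fold changes were positive and 14 negative (67.4% above 0), with a median of 0.09 against -0.02 for all peaks. This median was -0.002 without WT2 and -0.04 without KO3, where that of all peaks was -0.14 and -0.11, and 0.22 without WT3 and 0.27 without KO2, where that of all peaks was 0.08 in both.

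**Figure D3:**
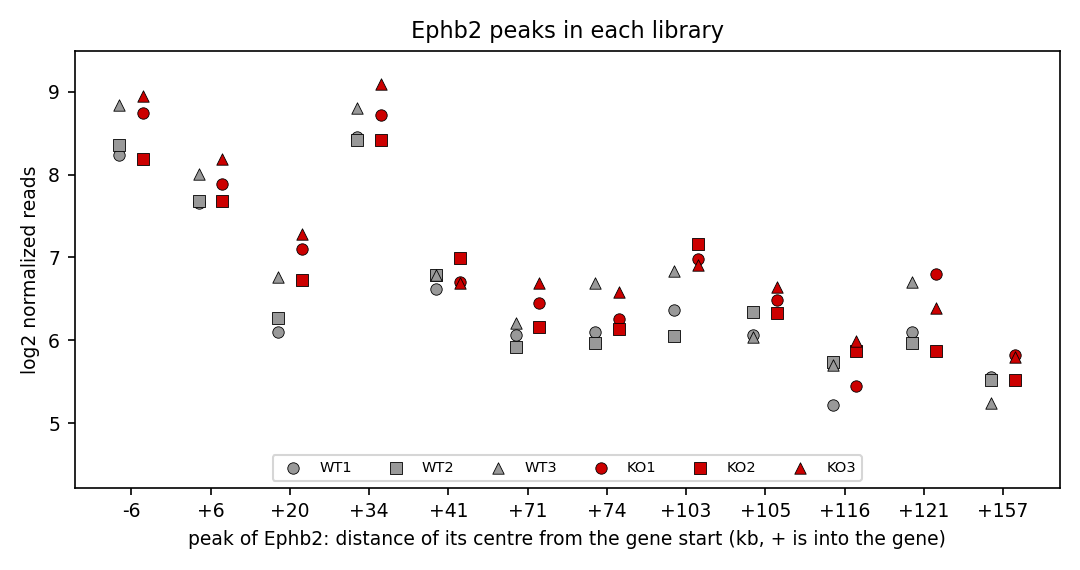
Accessibility (log2 normalized reads, y axis) of the 12 Ephb2 peaks in each library, ordered on the x axis by the distance of the peak centre from the gene start in kb. Grey marks are WT and red marks KO, with a shape per replicate number. Only in the peak at +103 kb are all KO marks above all WT marks, and at the 3 strongest peaks the 2 groups interleave.

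The centre of the Ephb2 peak at chr4:136732801-136733850 is shown because this was the only member peak whose groups did not overlap, a choice made after its values were seen. The 250 bases at chr4:136733201-136733450 (GRCm38, plus strand) hold 2 matches to the TCF/LEF core CTTTGA, read here on the other strand as TCAAAG and set in capitals.
Ephb2 intron: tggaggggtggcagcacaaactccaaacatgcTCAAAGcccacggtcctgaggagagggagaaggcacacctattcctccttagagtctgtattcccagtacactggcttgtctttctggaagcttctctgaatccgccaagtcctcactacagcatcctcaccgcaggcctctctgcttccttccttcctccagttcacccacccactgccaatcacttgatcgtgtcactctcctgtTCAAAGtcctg
TCF/LEF factors bind such a core when Wnt signalling is on, but a match of 6 letters is common and is not a binding site by itself. CTTTGA on either strand was in the central 250 bases of 7 of 43 member peaks (16.3%) and of 16.9% of 123509 peaks. Besides Ephb2, those peaks belonged to Epha4, Ephb4, Epha1 and Efnb2. The letters AGATAA, which GATA factors bind, were in 8 member peaks (18.6%) against 14% of all peaks. CATAAA, which CDX factors bind, was in 6 (14%) against 12.3%. In the windows before gene starts, CTTTGA was found for 1 of the 10 genes, Epha2 (14.8% of all genes). AGATAA was found for Efna4 (10.2% of all genes) and CATAAA for Ephb6 and Efna1 (10.7% of all genes).

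Summed over the peaks of a gene, the difference between KO and WT was smaller than its standard error for each of the 9 genes. Limma called 0 of the 9 and 0 of all 18004 named genes, of which 137 (0.761%) had an unadjusted p below 0.05, with 0 members among them. In none of the 9 did KO and WT separate, against 3.34% of all genes. The Ephb2 sum on the log2 scale was 10.51, 10.55 and 10.92 in WT and 10.91, 10.64 and 11.11 in KO, a fold change of 0.23 with a 95% interval of -0.34 to 0.80 (limma adjusted p = 1.00). The WT3 sum lay above those of KO1 and KO2. The Ephb3 sum was 9.71, 9.52 and 10.03 in WT and 9.84, 9.33 and 10.04 in KO, a fold change of -0.01 (-0.64 to 0.61). Those of the other receptors ran from -0.11 for Ephb6 (-0.79 to 0.57) to 0.17 for Ephb4 (-0.48 to 0.82). Efnb2 had 0.06 (-0.68 to 0.80) and Efna4 0.07 (-0.54 to 0.67). The intervals leave room for changes of more than 0.5 on the log2 scale in either direction for Ephb3, Epha1, Ephb6, Epha4, Efnb2 and Efna4.

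**Figure D4:**
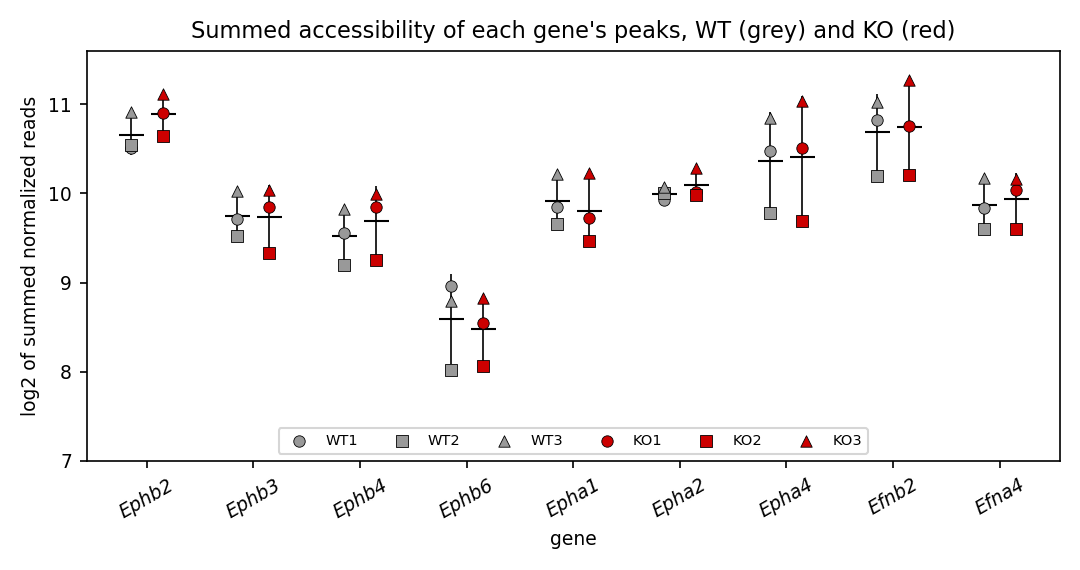
Log2 of the summed normalized reads of all peaks of a gene (y axis) for 9 genes, with WT in grey and KO in red. Each mark is a library, with a shape per replicate number, and bars show mean and SD over 3 libraries. WT and KO overlap for every gene, and the libraries with the number 2 are the lowest KO mark of each gene.

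The libraries with the number 2 stood apart for some of these genes more than the groups did. WT2 and KO2 both lay below every other library in 23 of 43 peaks (53.5%) and in 32.2% of all peaks. At Epha4 this held for 7 of 9 peaks, with a median difference of number 2 minus the other libraries of -0.88, against -0.27 for all peaks. At Ephb2 it held for 2 of 12 peaks, with a median difference of -0.28. For marker genes a looser rule was used, with WT2 and KO2 each the lowest of its own group. That held in 7 of the 8 epithelial marker genes with a peak, all but Krt20. It also held in 3 of 6 stromal, 1 of 4 endothelial and 0 of 3 blood genes. The share of all peaks under this looser rule was not computed. These counts on small lists therefore cannot be set against the 32.2%, or read as a difference between cell types. The strongest peak of Lgr5, the stem cell marker, was at 8.88, 7.85 and 9.03 in WT and 8.94, 7.89 and 9.06 in KO. That of Olfm4 was at 8.36, 7.52 and 9.02 in WT and 8.28, 7.91 and 8.88 in KO, whereas that of Krt20, a marker of differentiated cells, was at 8.05, 9.14 and 8.68 in WT and 8.67, 8.87 and 8.96 in KO. The part of these differences in the member values was not tested. The labels do not say what replicate numbers share. In reads, WT2 was the shallowest of the WT libraries (6180717) and KO2 the deepest of the KO libraries (7721797). With 1 read worth 1.84 in WT2 and 1.43 in KO2, both had the lowest summed normalized reads over all peaks. The part of this in the values of single genes was not tested.

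**Figure D5:**
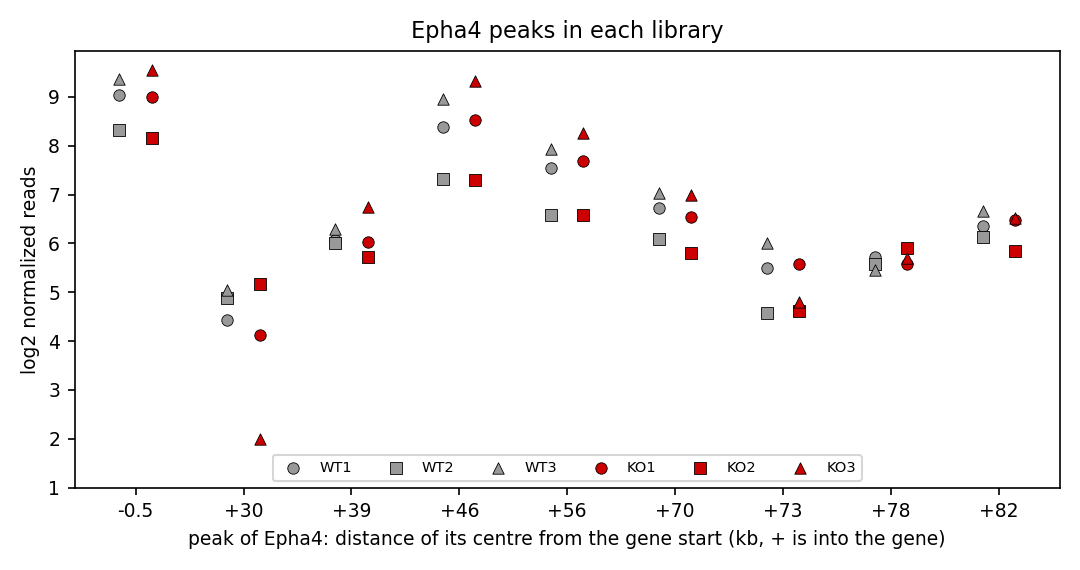
Accessibility (log2 normalized reads, y axis) of the 9 Epha4 peaks in each library, ordered on the x axis by the distance of the peak centre from the gene start in kb. Grey marks are WT, red marks KO, with a shape per replicate number. The squares of WT2 and KO2 are lowest in their group in 7 of 9 peaks, and the KO3 triangle at +30 kb is the value of 1 read.

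No peak of other family members or of genes that act with them was called. For comparison, 2.28% of all peaks had a limma unadjusted p below 0.05, and 6.8% did not overlap between groups. Of 12 further Eph and ephrin genes, 11 had a peak (Efnb3 had none), with 111 peaks in all. Limma called 0 of these, 1 had an unadjusted p below 0.05 and 3 (2.70%) did not overlap between groups, with a median fold change of -0.08. The 1 peak was in Epha3, chr16:63641251-63642150, at 6.43, 5.79 and 6.43 in WT and 5.21, 5.38 and 5.90 in KO. Efnb1, the ephrin-B1 gene, had a strongest peak at 9.52 ± 0.45 in WT and 9.51 ± 0.66 in KO. Of 18 genes of adaptors, exchange factors, kinases and other partners of the pathway, 17 had a peak (Itsn1 had none), with 187 peaks. Limma called 0, 6 had an unadjusted p below 0.05 and 10 (5.35%) did not overlap, with a median fold change of -0.02. The 6 were higher in KO at the kinase gene Abl2 (0.91, SE 0.34), the Rac regulator Chn2 (0.79, SE 0.28) and the exchange factor Kalrn (0.79, SE 0.35). They were lower at the exchange factor Vav3 (-0.83, SE 0.32) and at 2 peaks of Grip1, a scaffold that binds ephrin-B tails (-1.12, SE 0.39 and -0.69, SE 0.32).

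The genes with the most similar pattern across the 6 libraries were listed for Ephb2 and Ephb3. By the mean absolute difference of the 6 deviations from each gene's own mean log2 sum, the genes most like Ephb2 were Srsf12 (0.0193), Zfp108 (0.0221) and Rps26 (0.0222), with a median of 0.203 over all genes. Those most like Ephb3 were Pak2 (0.0219), 2610002J02Rik (0.0221) and Hrh1 (0.0228), with a median of 0.175. These are the smallest distances among 18004 named genes, and how close the best matches of other genes lie was not computed.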

How the data were processed

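ATAC-seq was done on 3 WT and 3 Smarcad1-KO libraries of crypt nuclei, grouped and numbered by their titles. The labels do not name separate mice, so p-values measure only the spread between these samples. Reads were trimmed with Trim Galore (0.4.1), mapped to GRCm38 with Bowtie2 (2.2.5) and imported into SeqMonk by the authors, without duplicates and with cutoffs of 20 for mapping quality and 1000 bp for distance, and MACS peaks were called. The authors deposited log2 read counts per peak, normalized to the largest library. The scale of 1 read was recovered from the lowest values, after which 100% of values were whole reads, and depth is the sum of these. Reads carry no molecular identifiers, so read numbers cover counting error only. A second deposited table of 74 peaks with the authors' comparison was not used, and 0 member peaks are in it.

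The study's test was edgeR, run on counts by the authors. As the deposited values are log2, a two-sided linear model in limma (3.58.1, R 4.3.3), moderated with a trend in the mean, was fitted here to all peaks, and in the same way to the log2 sum of the linear values of each gene's peaks, with Benjamini-Hochberg adjustment over all features and calls at an adjusted p below 0.05. The fit was tested on simulated data with changes larger than any fold change of a member peak. That test does not show whether changes of the size seen at members would be found. The members and gene lists were chosen with earlier results of these data known. Named were all members, each gene's peak nearest its start and its strongest peak, peaks with an unadjusted p below 0.05, the highest and lowest fold changes, and 3 genes most like Ephb2 and Ephb3. Positions and gene parts came from GENCODE vM21, not from the deposited orientation column, which calls some upstream peaks downstream. Sequences and RefSeq starts were on GRCm38. Alternatives were median centring, quantile normalization, voom, a pseudocount of 5, a minimum mean of 64 normalized reads, the replicate block, and each library left out. No column of values was left without a sample. A gene of the blood marker list is not reported here.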

Additional observations from a re-analysis of the deposited data

How the results depend on the processing

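Member peaks called stayed at 0 under all alternatives, as did called gene sums of members, and member adjusted p in limma ranged from 0.13 to 1. The labels do not say whether replicate numbers pair the libraries, and the main fit did not pair them. Deviations from the group mean correlated at 0.036, 0.42 and 0.41 between same-numbered libraries 1, 2 and 3. Between different numbers the correlations ran from -0.46 to 0.04. With the replicate block, 5 member peaks had an unadjusted p below 0.05 (4 higher in KO) and so did 6.87% of all peaks, 1 peak of the other family and pathway genes was called, and 272 of all peaks (0.22%) were called. Every library except WT1 correlated best with its own number, which comes from the data and not from the design. At each peak the deviations of a group sum to 0, so these correlations are not independent of each other. Whether the numbers pair the libraries was not tested. Leaving out each library gave 0 to 3 member peaks at an unadjusted p below 0.05, while the share of all peaks ran from 0.944% (without WT1) to 4.56% (without WT2). The 1 peak without WT2, and 1 of the 3 without KO2, were lower in KO. The WT difference of Ephb2 and Ephb3 minus ephrins was -0.07 (-0.0688) with the peak of most reads of each gene. The Epha4 gene sum reversed under voom, to -0.0198. Leaving out each library gave fold changes of gene sums of -0.16 to 0.19 for Ephb3, -0.40 to 0.10 for Ephb6, -0.317 to 0.0654 for Epha1, -0.27 to 0.41 for Epha4, -0.20 to 0.33 for Efnb2 and -0.0687 to 0.232 for Efna4, so their directions rest on single libraries. Ephb2 kept its sign (0.12 to 0.36), and Ephb4 (0.0027 to 0.393) and Epha2 (0.0017 to 0.151) fell to about 0. Single peaks and gene sums were each refitted under the alternatives. Of these fits, 141 kept their direction and side of the threshold and 14 reversed, and the cause was not tested. They are repeated fits of the same few peaks and gene sums, not separate results. The minimum of 64 normalized reads kept 36 of 43 member peaks. Depth limits the weak peaks, most in KO3, where 32 peaks had no read.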
